A study of Mus musculus with 6 samples.

Results

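The naive pluripotency transcription factors described here are 10 genes, Nanog, Esrrb, Nr0b1, Nr5a2, Tfcp2l1, Klf2, Klf4, Klf5, Tbx3 and Zfp42, picked by name from the 49585 gene rows of the deposited table. All 10 had a row with read counts in every library, and all 10 passed the filter on low counts that left 11594 genes for testing. The counts come from C57BL/6 mouse epiblast-like cells (EpiLCs), made from embryonic stem cells (ESCs) and harvested at day 2 of induction. Cables2-/- cells (knockout, KO, 3 libraries) were compared with wild type (WT, 3 libraries). Both groups had been kept as ESCs with LIF, 3 μM CHIR99021 and 1 μM PD0325901, and both were induced on fibronectin with activin A (20 ng/mL), bFGF (12 ng/mL) and 1% KSR. The labels do not say how the deletion was made, how many ESC lines were used, whether a karyotype was checked, or whether the libraries of a group are separate cultures, so the p-values cover only the spread between these libraries.

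In the mouse, naive pluripotency is the state of the preimplantation epiblast and of ESCs held with LIF and inhibitors of GSK3 and MEK. A web of transcription factors sustains it: LIF acts through Stat3 on Tfcp2l1 and Klf4, GSK3 inhibition relieves repression of Esrrb by Tcf7l1, and Nanog, Esrrb and the Klf factors bind one another's genes together with Oct4 and Sox2. On the way to EpiLCs, which resemble the early postimplantation epiblast, these factors are turned down while Oct4 is kept.

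Libraries held 4442618 to 5206717 counts in KO and 4234788 to 4848967 in WT. Cables2 had 6, 11 and 4 counts in KO libraries 04, 05 and 06, against 114, 111 and 121 counts in WT libraries 01, 02 and 03 (5.36% of the WT mean in KO). Mitochondrially encoded transcripts held 0.204% to 0.243% of counts in KO and 0.141% to 0.152% in WT, and the part of this difference in the results below was not tested. Library 01 of WT was the highest WT library for 7 of the 10 (Esrrb, Nr0b1, Nr5a2, Tfcp2l1, Klf4, Klf5 and Tbx3). KO library 06 was the lowest KO library for 6 (Nr0b1, Nr5a2, Tfcp2l1, Klf4, Tbx3 and Zfp42). How often each of these held over all tested genes was not computed. The calls that end without either library are given below.

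The stretch around the transcription start is shown for 4 of the genes: Nanog, one of the 2 genes with the largest falls, Esrrb as the most abundant of the nuclear receptor genes, Zfp42 as the weakest fall that passed the test, and Klf2, the factor that rose. The windows run from 250 bases before to 50 after a RefSeq start (GRCm38.p6), and 8 of the 10 genes were matched by symbol, all but Klf5 and Tbx3. Capitals mark matches, on either strand, to ATGCAAAT or its shorter form ATGCAAA (octamer, bound by Oct4), ACAATG (Sox), TCAAGGTCA or its core AAGGTCA (Esrrb), CCACCC (Klf box) and TTCNNNGAA (Stat).
Nanog, chr6:122707239-122707538, plus strand: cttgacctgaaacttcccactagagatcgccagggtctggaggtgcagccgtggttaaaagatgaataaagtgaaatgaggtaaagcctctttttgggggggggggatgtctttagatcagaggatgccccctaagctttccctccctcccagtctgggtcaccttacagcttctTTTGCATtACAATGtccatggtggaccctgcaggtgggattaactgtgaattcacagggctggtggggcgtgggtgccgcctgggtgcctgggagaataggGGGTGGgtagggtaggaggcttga
Esrrb, chr12:86360867-86361166, plus strand: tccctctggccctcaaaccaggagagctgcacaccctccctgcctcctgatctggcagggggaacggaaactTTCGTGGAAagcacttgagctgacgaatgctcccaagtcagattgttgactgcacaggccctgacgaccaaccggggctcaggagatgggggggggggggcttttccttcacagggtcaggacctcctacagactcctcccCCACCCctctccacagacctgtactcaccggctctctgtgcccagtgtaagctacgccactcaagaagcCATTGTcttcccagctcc
Zfp42, chr8:43306960-43307259, minus strand: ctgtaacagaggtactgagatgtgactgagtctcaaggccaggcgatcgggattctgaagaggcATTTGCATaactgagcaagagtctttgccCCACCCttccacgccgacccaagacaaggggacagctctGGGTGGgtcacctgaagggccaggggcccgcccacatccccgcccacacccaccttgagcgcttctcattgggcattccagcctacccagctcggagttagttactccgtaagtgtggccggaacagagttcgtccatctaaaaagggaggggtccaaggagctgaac
Klf2, chr8:72318812-72319111, plus strand: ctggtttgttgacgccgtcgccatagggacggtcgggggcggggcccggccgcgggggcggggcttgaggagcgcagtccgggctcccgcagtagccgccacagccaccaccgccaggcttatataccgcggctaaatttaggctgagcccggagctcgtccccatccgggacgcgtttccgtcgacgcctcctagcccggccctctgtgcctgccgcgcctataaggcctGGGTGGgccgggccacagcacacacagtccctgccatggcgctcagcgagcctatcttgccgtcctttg
In the Nanog window TTTGCAT (the reverse strand of ATGCAAA) began 75 bases before the start and ACAATG began 67 bases before it, with 1 base between them. This is the composite Oct4 and Sox2 element known from work on the mouse Nanog promoter. Among all 32851 windows of this length, 4.63% held ATGCAAA and 12.6% held ACAATG, and among the 8 windows of these factors both motifs were found in 2 each. The full octamer was found in the Zfp42 window, against 1.74% of all windows; any full octamer also counts as a match to its shorter form. The Klf box was found in 5 of the 8 windows (Nanog, Esrrb, Nr0b1, Klf2 and Zfp42) and in 31.5% of all windows. A Stat match was found in 1 (Esrrb) and in 8.3% of all windows. Neither TCAAGGTCA nor AAGGTCA was in any of the 8 windows (0.423% and 4.72% of all windows). The shorter forms were added after the windows had been seen, and a match says nothing of whether a factor binds there.

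Of the 10 factors, 8 fell in KO, 1 (Klf2) rose and 1 (Tbx3) did not pass the test at an adjusted p under 0.05. Over all tested genes 9.13% fell, 8.13% rose and 17.3% were called in either direction. The median log2 fold change (KO minus WT) was -0.84 over the 10 factors and 0.01 over all tested genes. In 8 of the 10 the KO libraries did not overlap the WT libraries, which held for 31.6% of tested genes. Levels are given in CPM, counts scaled by the TMM-adjusted size of each library. Over the 10 genes CPM summed to 249.7, 249.2 and 247.5 in KO libraries 04, 05 and 06, against 469, 416 and 400 in WT libraries 01, 02 and 03. The KO sums lay within 3 CPM of each other, and each WT sum was higher. Without Esrrb the KO sums were less alike (184.0, 175.6 and 176.1 CPM, against 322, 302 and 285 CPM in WT, in the same order). As these are bulk libraries, fewer cells that carry a transcript and less of it per cell cannot be told apart. By the FDR-corrected p of the authors' deposited table, 8 of the 10 pass 0.05, all but Tbx3 and Zfp42. The share of all genes that pass by that p was not computed. Without WT library 01, 6 of the 10 fell and none rose, while over all tested genes 820 fell and 746 rose.

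**Figure D1:**
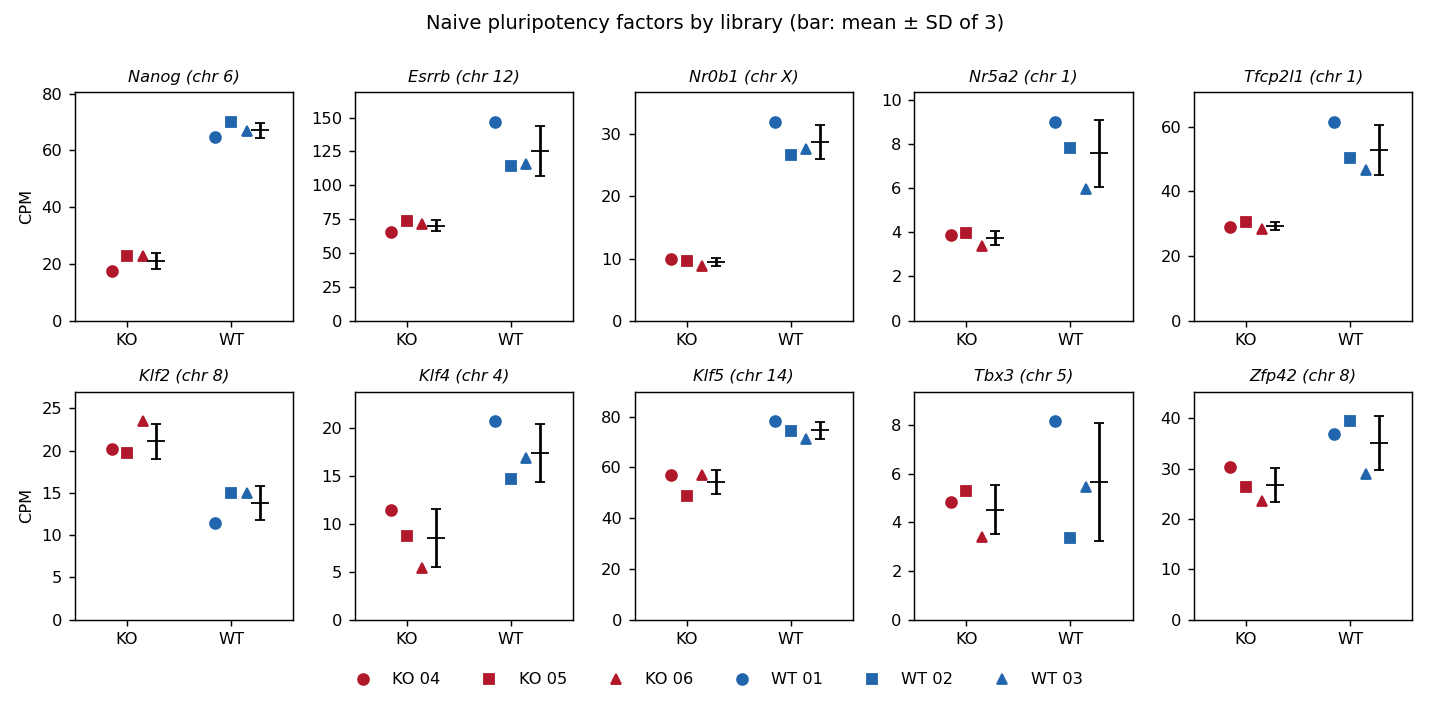
Level of each of the 10 factors in CPM (y axis from 0) in the 3 KO libraries (left, red) and the 3 WT libraries (right, blue); black bars give the mean ± SD. The groups overlap for Tbx3 and Zfp42, and Klf2 is the panel in which all KO libraries lie above all WT libraries.

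Nanog encodes the homeodomain factor that stabilises the naive state, and with Nr0b1 it had the largest falls of the 10. Nanog was the lower in the fit to all libraries (-1.68, against -1.60 for Nr0b1), and Nr0b1 was the lower without KO library 04 (-1.64, against -1.56 for Nanog) and relative to the median of each gene's chromosome (-1.61, against -1.43 for Nanog). Nanog (ENSMUSG00000012396.12, chromosome 6, 122707489 to 122714633, plus strand, mm10) had 91, 120 and 101 counts in KO libraries 04, 05 and 06, against 310, 314 and 281 counts in WT libraries 01, 02 and 03. That is 17.7, 22.7 and 22.8 CPM in KO, against 64.7, 69.9 and 66.8 CPM in WT. All KO libraries were low, with library 04 the lowest, and the WT libraries were close together and far above them. The mean was 21.04 ± 2.93 CPM in KO, 31.3% of the 67.2 ± 2.62 CPM in WT (SD, n = 3 each; log2 fold change -1.68 ± 0.11, SE; adjusted p = 3.85e-21). In the authors' deposited table the signed fold of Nanog is -3.20. The rows Nanog-ps1 (chromosome X) and Nanog-ps2 (chromosome 12), pseudogenes whose sequence could draw reads from Nanog, were listed at 0 counts in all 6 libraries.

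Chromosome 6 as a whole was lower in KO, so the Nanog value was also read against it. The copy number of this chromosome and of chromosome 8 was not tested. Of 537 tested genes on chromosome 6, 192 fell and 6 rose, with a median log2 fold change of -0.25. On this chromosome all 11 bins of 10 Mb with at least 20 tested genes had a median below 0 (-0.37 to -0.19). Relative to that median the log2 fold change of Nanog was -1.43, and relative to the median of the 77 tested genes within 5 Mb it was -1.36. It was lower than all 77 of those genes. Only 1 of the 536 other tested genes of chromosome 6 had a larger fall.

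The tested gene closest to Nanog was also the one most like it in pattern. Slc2a3, which encodes the glucose transporter Glut3, lies 13176 bases beyond the end of Nanog and fell to 188 ± 13.3 CPM in KO, against 508 ± 20.3 CPM in WT (SD, n = 3 each; -1.43 ± 0.05, adjusted p = 8.57e-37). Likeness was measured as the root mean square difference from Nanog, over the 6 libraries, of log2(CPM + 0.5) minus its WT mean, and Slc2a3 had the smallest value of all tested genes outside the list (0.201). With the WT mean subtracted, a gene that fell about as much as Nanog comes out as alike. Likeness here therefore largely restates the size of the fall. The next were Cox7a1 (0.248), Mgarp (0.302), Gm7325 (0.306) and Rps21 (0.333), none of them on chromosome 6. Rps21 is on chromosome 2, as is Cables2, and the part of the deletion itself in the fall of Rps21 was not tested. Cox7a1 and Mgarp averaged only 0.658 and 0.787 CPM in KO. On the other side the nearest tested gene was Dppa3, a maternal and germline factor gene 77217 bases away, with 3.66 ± 0.554 CPM in KO and 4.52 ± 0.0699 CPM in WT (SD, n = 3 each; -0.31 ± 0.33, adjusted p = 0.583).

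The nuclear receptor genes fell as well. Esrrb encodes an orphan receptor that takes over functions of Nanog when forced in ESCs. Esrrb (ENSMUSG00000021255.17, chromosome 12, 86361117 to 86521628, plus strand) had 65.8, 73.6 and 71.5 CPM in KO libraries 04, 05 and 06, against 147, 114 and 116 CPM in WT libraries 01, 02 and 03. WT library 01 was the highest, and the other WT libraries were still above every KO library. Esrrb averaged 70.3 ± 4.04 CPM in KO and 125 ± 18.4 CPM in WT (SD, n = 3 each; -0.84 ± 0.08, adjusted p = 7.38e-14).

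Nr0b1, or Dax1, encodes a receptor without the usual DNA-binding domain that partners other factors of the network. Nr0b1 (ENSMUSG00000025056.4, chromosome X, 86191764 to 86195947, plus strand) had 9.9, 9.65 and 8.79 CPM in KO libraries 04, 05 and 06, against 32.0, 26.7 and 27.6 CPM in WT libraries 01, 02 and 03. These came from 51, 51 and 39 counts in KO and 153, 120 and 116 counts in WT. The KO libraries were nearly level, and the groups were far apart. The KO mean was 32.8% of the WT mean (9.45 ± 0.58 CPM in KO and 28.8 ± 2.8 CPM in WT, SD, n = 3 each; -1.60 ± 0.16, adjusted p = 9.53e-13). None of the 404 other tested genes of chromosome X had a larger fall, and the median of that chromosome was 0.01. Only 3 tested genes lay within 5 Mb of Nr0b1, with a median of -0.23. Against that median Nr0b1 was at -1.38, and Nanog was at -1.36 against the median of its own 5 Mb window. The nearest tested gene, the glycerol kinase gene Gk, did not pass the test (-0.45 ± 0.20, adjusted p = 0.105).

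Nr5a2, or Lrh1, encodes a receptor that binds the regulatory DNA of Oct4 and other pluripotency genes. Nr5a2 (ENSMUSG00000026398.14, chromosome 1, 136842571 to 136960448, minus strand) rested on few reads, with 20, 21 and 15 counts in KO libraries 04, 05 and 06, against 43, 35 and 25 counts in WT libraries 01, 02 and 03. The groups did not overlap in CPM (3.38 to 3.97 in KO, 5.95 to 8.98 in WT). Nr5a2 averaged 3.75 ± 0.318 CPM in KO and 7.57 ± 1.53 CPM in WT (SD, n = 3 each; -1.01 ± 0.29, adjusted p = 0.00731). Without WT library 01 the value was -0.87 and the call ended (adjusted p = 0.0686).

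Tfcp2l1 encodes a CP2-family factor that carries part of the LIF and Stat3 signal. Tfcp2l1 (ENSMUSG00000026380.10, chromosome 1, 118627945 to 118685168, plus strand) had 28.9, 30.7 and 28.4 CPM in KO libraries 04, 05 and 06, against 61.4, 50.3 and 46.6 CPM in WT libraries 01, 02 and 03. The KO libraries differed little from one another, and WT library 01 was again the highest. The mean was 29.3 ± 1.18 CPM in KO and 52.8 ± 7.69 CPM in WT (SD, n = 3 each; -0.85 ± 0.11, adjusted p = 9.22e-09). On one side the nearest tested gene was Gli2, a Hedgehog pathway factor gene 148964 bases away, which fell too (24.8 CPM in KO, 50.1 CPM in WT; -1.004 ± 0.12, adjusted p = 1.82e-10). On the other side Clasp1, which encodes a microtubule plus-end protein, did not pass the test (0.12 ± 0.07, adjusted p = 0.278).

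**Figure D2:**
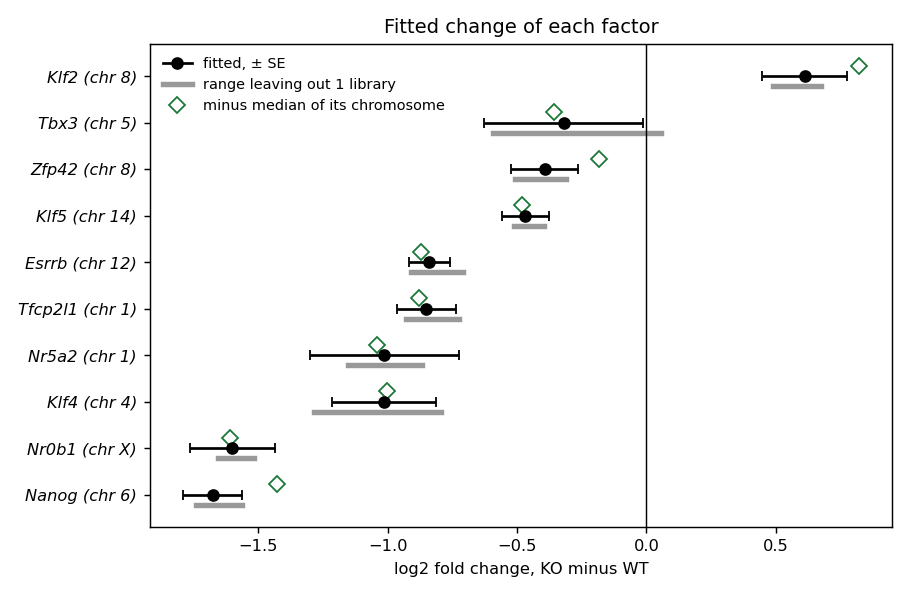
Fitted log2 fold change (KO minus WT) of each factor with its SE (black), the range of values when 1 library is left out (grey), and the value after the median of its chromosome is subtracted (open diamonds). Klf2 lies above 0 on every measure shown, Tbx3 crosses 0 when WT library 01 is left out, and Zfp42 moves to -0.18 against the median of chromosome 8.

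The Krüppel-like factor genes did not move together. Klf2, Klf4 and Klf5 encode related zinc finger proteins that share many binding sites in mouse ESCs, where their loss is tolerated one at a time better than together. Klf4 and Klf5 fell in KO, and Klf2 rose.

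Klf4 (ENSMUSG00000003032.8, chromosome 4, 55527143 to 55532466, minus strand), a target of Stat3, had 59, 46 and 24 counts in KO libraries 04, 05 and 06, against 99, 66 and 71 counts in WT libraries 01, 02 and 03. In CPM these were 11.4, 8.7 and 5.41 in KO, against 20.7, 14.7 and 16.9 in WT. The KO libraries were more uneven for Klf4 than for any of the other 9 factors, with the highest 2.12 times the lowest. Klf4 averaged 8.52 ± 3.02 CPM in KO and 17.4 ± 3.02 CPM in WT (SD, n = 3 each; -1.01 ± 0.20, adjusted p = 6.92e-05). None of the 781 other tested genes of chromosome 4 had a larger fall.

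Klf5 (ENSMUSG00000005148.8, chromosome 14, 99298691 to 99313405, plus strand) had 56.9, 48.6 and 56.8 CPM in KO libraries 04, 05 and 06, against 78.1, 74.4 and 71.4 CPM in WT libraries 01, 02 and 03. Spread within each group was small, and the groups did not overlap. The mean was 54.1 ± 4.74 CPM in KO and 74.6 ± 3.38 CPM in WT (SD, n = 3 each; -0.47 ± 0.09, adjusted p = 4.65e-05). The next tested gene beyond it, the family member Klf12, did not pass (0.03 ± 0.39, adjusted p = 0.97).

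Klf2 (ENSMUSG00000055148.7, chromosome 8, 72319033 to 72321656, plus strand), which in mouse ESCs depends on Oct4 and is held down by ERK signalling, had 104 counts in each of the 3 KO libraries, against 55, 67 and 63 counts in WT libraries 01, 02 and 03. In CPM these were 20.2, 19.7 and 23.4 in KO, against 11.5, 14.9 and 14.98 in WT. Every KO library was above every WT library, and WT library 01, the highest for most of the other factors, was the lowest for Klf2. The mean was 21.1 ± 2.04 CPM in KO and 13.8 ± 2.0 CPM in WT (SD, n = 3 each; 0.61 ± 0.17, adjusted p = 0.00449). Without WT library 01 the value was 0.49 and did not pass (adjusted p = 0.058).

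Klf2 rose on a chromosome that was otherwise lower in KO. Of 647 tested genes on chromosome 8, 223 fell and 13 rose, and the median log2 fold change was -0.21. On this chromosome all 12 bins of 10 Mb with at least 20 tested genes had a median below 0 (-0.32 to -0.15). Against the chromosome's median Klf2 was 0.82 higher, and 8 of the 646 other tested genes of chromosome 8 had a larger rise. Of the 112 tested genes within 5 Mb of Klf2, 33 fell and none rose, and Klf2 was higher than 111 of them. Its nearest tested genes on either side, the adaptor subunit gene Ap1m1 (-0.48 ± 0.11, adjusted p = 0.00107) and the endocytic gene Eps15l1 (-0.29 ± 0.08, adjusted p = 0.00483), both fell.

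The balance within the Klf genes was compared as a ratio in each library, which needs no scaling between libraries. The log2 ratio of Klf2 to Klf4 was 0.82, 1.18 and 2.12 in KO libraries 04, 05 and 06, against -0.85, 0.02 and -0.17 in WT libraries 01, 02 and 03. These do not overlap, and the means differed by 1.70 (exact permutation test, two-sided p = 0.1, the smallest that 3 libraries against 3 allow). Every KO library was above every WT library for Klf2, and below every WT library for Klf4 and Klf5. The ratios of Klf2 to Klf4 and to Klf5 therefore had to separate, and their exact p adds nothing to those calls. The log2 ratio of Klf2 to Klf5 averaged -1.36 ± 0.118 in KO and -2.44 ± 0.28 in WT (SD, n = 3 each; difference 1.09, exact p = 0.1). The log2 ratio of Klf4 to Klf5 averaged -2.73 ± 0.581 in KO and -2.11 ± 0.213 in WT, and these overlapped (difference -0.62, exact p = 0.2). Nanog to Esrrb, the last of the 4 ratios computed, averaged -1.75 ± 0.131 in KO and -0.89 ± 0.253 in WT without overlap (difference -0.86, exact p = 0.1). Adjusted over the 4, the exact p-values were 0.133 to 0.2.

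Tbx3, a T-box factor gene linked to self-renewal and also to primitive endoderm in the mouse, showed no detectable difference at this depth. Tbx3 (ENSMUSG00000018604.18, chromosome 5, 119670669 to 119684724, plus strand) had 25, 28 and 15 counts in KO libraries 04, 05 and 06, against 39, 15 and 23 counts in WT libraries 01, 02 and 03. WT library 01 was the highest of all and WT library 02 the lowest, so the WT range (3.34 to 8.14 CPM) enclosed the KO range (3.38 to 5.3 CPM). The mean was 4.51 ± 1.0 CPM in KO and 5.65 ± 2.41 CPM in WT (SD, n = 3 each; -0.32 ± 0.31, adjusted p = 0.539). Leaving out WT library 01 gave 0.06 and leaving out WT library 02 gave -0.59, while the fit that lacked KO library 06 gave -0.16. Tbx3os1, annotated antisense to Tbx3, was listed at 0 counts in all libraries.

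Zfp42, or Rex1, a zinc finger gene whose reporter is widely used to mark naive ESCs, had the smallest fall of those that passed. Zfp42 (ENSMUSG00000051176.6, chromosome 8, 43295063 to 43306980, minus strand) had 30.3, 26.3 and 23.7 CPM in KO libraries 04, 05 and 06, against 37.0, 39.4 and 29.0 CPM in WT libraries 01, 02 and 03. KO library 04 was above WT library 03, so the groups overlapped. The mean was 26.7 ± 3.32 CPM in KO and 35.1 ± 5.44 CPM in WT (SD, n = 3 each; -0.39 ± 0.13, adjusted p = 0.0243). The call depended on single libraries: dropping WT library 01 (adjusted p = 0.0878), WT library 02 (0.161), KO library 05 (0.0721) or KO library 06 (0.133) ended it. It did not pass with DESeq2 (adjusted p = 0.099) or in the authors' deposited table (FDR-corrected p = 0.0806). Relative to the median of chromosome 8 its value was -0.18, and 139 of the 646 other tested genes there had a larger fall. In the fit to all libraries Klf2 (0.61) and Zfp42 (-0.39) had opposite signs on the same chromosome, with Zfp42 the nearer to its median (-0.21). The nearest tested gene upstream of Zfp42, the cadherin-family gene Fat1, 1628467 bases away, rose (0.38 ± 0.04, adjusted p = 6.94e-11).

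**Figure D3:**
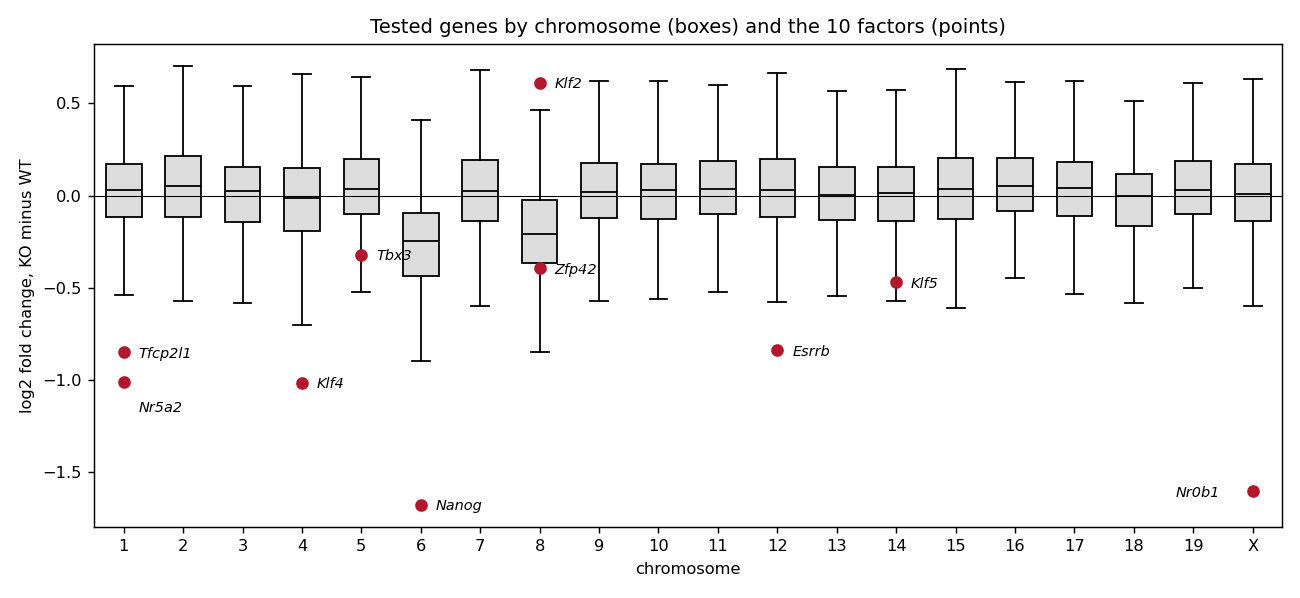
Log2 fold change (KO minus WT) of all tested genes on each chromosome (boxes: median and quartiles; whiskers reach up to 1.5 times the box height; single outlying genes are not drawn) with the 10 factors as red points. The boxes of chromosomes 6 and 8 lie lower than the others, with medians of -0.25 and -0.21.

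Among the other chromosomes, leaving out Y and the mitochondrial genome, the medians ran from -0.01 to 0.05. On these chromosomes the share of tested genes that fell ran from 3.74% (chromosome 16) to 9.72% (chromosome 18). Of the 7 factors that lie on neither chromosome 6 nor 8, 6 fell. Subtracting the median of the chromosome moved none of those 7 by more than 0.04 on the log2 scale.

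Levels can be set between genes only per length, and CPM per kilobase of annotated exon is used for that here. In KO the order was Zfp42 (14.2 ± 1.77), Esrrb (11.6 ± 0.669), Klf2 (11.4 ± 1.11), Klf5 (10.4 ± 0.91) and Nanog (9.39 ± 1.31), followed by Nr0b1 (5.22 ± 0.321), Tfcp2l1 (3.11 ± 0.125), Klf4 (2.79 ± 0.992), Tbx3 (0.681 ± 0.151) and Nr5a2 (0.635 ± 0.054; CPM per kilobase, SD, n = 3). In WT it was Nanog (29.96 ± 1.17), Esrrb (20.7 ± 3.04), Zfp42 (18.7 ± 2.89), Nr0b1 (15.9 ± 1.55) and Klf5 (14.3 ± 0.65), followed by Klf2 (7.47 ± 1.08), Klf4 (5.71 ± 0.991), Tfcp2l1 (5.59 ± 0.815), Nr5a2 (1.28 ± 0.259) and Tbx3 (0.853 ± 0.363). Nanog was thus the highest in WT, separate from Esrrb, and came after Zfp42, Esrrb, Klf2 and Klf5 in KO, where its libraries overlapped those of Klf5. In KO, Esrrb with Klf2, Klf2 with Klf5, Tfcp2l1 with Klf4, and Tbx3 with Nr5a2 also overlapped as neighbours. In WT the overlapping neighbours were Esrrb with Zfp42, Zfp42 with Nr0b1, Nr0b1 with Klf5, Klf2 with Klf4, Klf4 with Tfcp2l1, and Nr5a2 with Tbx3. With the longest transcript as the length, Esrrb came first in KO and its libraries overlapped those of Nanog in WT.

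**Figure D4:**
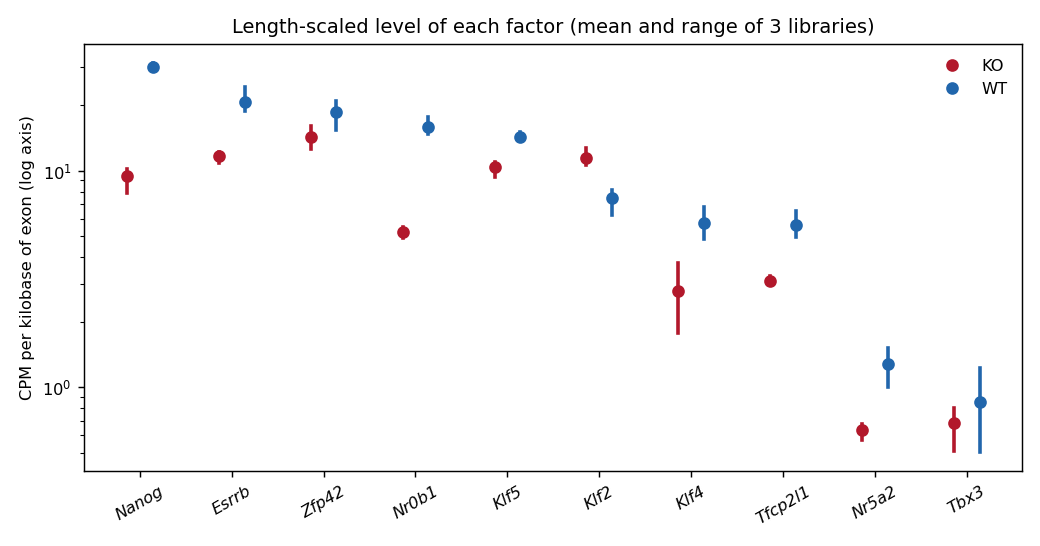
CPM per kilobase of annotated exon (log axis) of each factor in KO (red, left of each pair) and WT (blue); points are means and lines the range of 3 libraries. Nanog stands above the rest at 29.96 in WT; in KO its mean, 9.39, is below those of Zfp42, Esrrb, Klf2 and Klf5, and its range overlaps only that of Klf5 among them.

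Of 17 other genes of the naive stage, 12 were tested, 4 fell and 1 rose, with a median log2 fold change of -0.15 (0.01 over all tested genes). Tet2, a DNA demethylase gene, fell to 56.0 ± 7.9 CPM in KO, against 103 ± 5.65 CPM in WT (SD, n = 3 each; -0.88 ± 0.09, adjusted p = 1.6e-13). Fbxo15 (-0.82 ± 0.17, adjusted p = 0.000174), a target of Oct4 and Sox2, Dppa5a (-0.25 ± 0.05, adjusted p = 0.000144), an RNA-binding protein gene, and the myosin light chain gene Mylpf (-0.83 ± 0.27, adjusted p = 0.0214) fell as well. Trim6, a ubiquitin ligase gene, rose (0.23 ± 0.06, adjusted p = 0.00116). Fgf4, the ligand gene that drives exit from the naive state, was at 213 ± 13.2 CPM in KO and 219 ± 2.9 CPM in WT (-0.04 ± 0.06, adjusted p = 0.71). Of the untested, Prdm14 and Spic were listed at 0 counts in all libraries, and Tcl1, Jam2 and Pdzk1 had 0 to 11 counts.

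Among 11 genes of the LIF, Wnt and ERK inputs, all tested, 3 fell and 1 rose (median -0.06). The LIF receptor gene Lifr fell to 25.5 ± 3.94 CPM in KO, against 46.8 ± 7.3 CPM in WT (SD, n = 3 each; -0.87 ± 0.12, adjusted p = 4.87e-08). Jak1, the kinase gene of that receptor (-0.30 ± 0.09, adjusted p = 0.00801), and Mapk3, which encodes ERK1 (-0.47 ± 0.08, adjusted p = 9.53e-06), also fell. Stat3 itself (-0.03 ± 0.14, adjusted p = 0.93) and its feedback target Socs3 (-0.35 ± 0.14, adjusted p = 0.0686) did not pass. Tcf7l1 on chromosome 6, the repressor gene of Esrrb and Nanog, was higher in KO (149.8 ± 10.7 CPM in KO, 132 ± 12.4 CPM in WT; 0.19 ± 0.07, adjusted p = 0.0448). That call, and with it the count of 1 that rose, ended when any 1 of WT libraries 01 and 02 and KO libraries 04 and 05 was dropped, and also with no low-count filter.

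The core partners of the network had a median of -0.0043 with 1 of 8 tested higher and 2 lower. Foxd3, a forkhead factor gene, rose (0.51 ± 0.09, adjusted p = 1.2e-05), while Lin28a, which encodes a let-7 inhibitor (-0.20 ± 0.05, adjusted p = 0.000537) fell. Dropping WT library 02 or KO library 05 gave 2 that rose. Pou5f1, which encodes Oct4, was at 806 ± 25.6 CPM in KO and 771 ± 38.3 CPM in WT (SD, n = 3 each; 0.07 ± 0.05, adjusted p = 0.344). Sox2, with at most 2 counts in any library, was below the filter, and whether its row can measure the gene was not tested. Of 14 formative transcription factor genes, all tested, 4 rose and 4 fell (median -0.01). Pou3f1, which encodes Oct6 (0.88 ± 0.05, adjusted p = 1.56e-23), Sall2 (0.45 ± 0.08, adjusted p = 9.17e-06), Grhl2 (0.45 ± 0.10, adjusted p = 0.000276) and Sox3 (0.33 ± 0.07, adjusted p = 0.00037) rose. The ETS factor gene Etv4, an FGF target (-0.48 ± 0.06, adjusted p = 6.74e-10), Sox4 (-0.39 ± 0.06, adjusted p = 8.2e-07), Lef1, a partner of beta-catenin (-0.40 ± 0.11, adjusted p = 0.00776) and Tcf15 (-0.28 ± 0.09, adjusted p = 0.0219) fell, and only 2 fell without KO library 05.

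**Figure D5:**
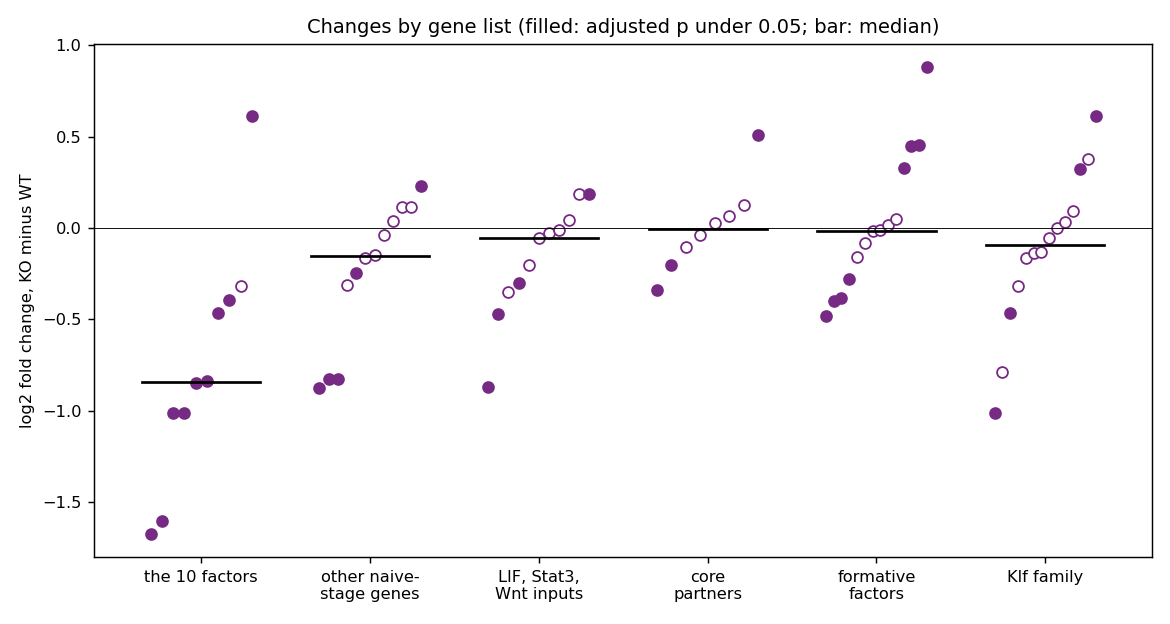
Log2 fold change (KO minus WT) of each tested gene by list, sorted within the list; filled points passed an adjusted p of 0.05 and the bars are medians. The 10 factors have the lowest median, -0.84, and the other lists have medians between -0.15 and -0.0043.

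In the wider Klf family, 14 of 17 genes were tested, 2 rose and 2 fell. Besides the genes above, Klf13 rose (292 ± 25.4 CPM in KO, 233 ± 2.9 CPM in WT; 0.33 ± 0.06, adjusted p = 5.48e-06). With WT library 01 dropped, 1 of the family rose, and 3 rose when WT library 03 or KO library 04 was dropped. Klf17, which marks the human naive state, had 8 to 15 counts in each library and was below the filter.

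Markers of other cell types were read because some of these factors are also used outside the epiblast. The EpiLC markers Pou5f1, Fgf5, Pou3f1, Otx2, Dnmt3b and Dnmt3a were all tested and summed to 4043 to 4190 CPM in KO and 3724 to 3958 CPM in WT. Of the 6, 2 rose, Pou3f1 and the growth factor gene Fgf5 (36.7 ± 4.99 CPM in KO, 16.4 ± 2.85 CPM in WT, SD, n = 3 each; 1.17 ± 0.14, adjusted p = 5.24e-10), and 1 fell, the DNA methyltransferase gene Dnmt3a (-0.17, adjusted p = 0.00186). Primitive endoderm markers summed to 3.88 to 5.86 CPM in KO and 7.52 to 9.36 CPM in WT. Of these 6 genes only Gata4 was tested, and it fell (-1.25 ± 0.45, adjusted p = 0.0393); Foxa2 had 0 to 4 counts. Germ cell markers summed to 42.6 to 49.2 CPM in KO and 51.5 to 66.4 CPM in WT, with Kit lower (-0.60 ± 0.13, adjusted p = 0.000213) as the 1 call among 4 tested, and Prdm14 at 0. Trophoblast markers overlapped between the groups (32.2 to 44.4 CPM in KO, 29.8 to 42.3 CPM in WT), with 0 of 4 tested called, Elf5 at 0 and Cdx2 at 0 to 3 counts. Fibroblast markers (15.8 to 23.1 CPM in KO, 15.2 to 16.7 CPM in WT; 0 of 2 tested called, Lum and Postn at 0) and 2-cell-like markers (5.68 to 8.34 CPM in KO, 6.18 to 6.68 CPM in WT; 0 of 1 called) overlapped too. The lower sums of primitive endoderm and germ cell markers did not hold for every gene. Pdgfra and Foxa2, with at most 8 counts in a library, had higher means in KO, while Gata6, Gata4, Sox17 and Sox7 had lower ones. Among germ cell markers Kit differed most (26.2 CPM in KO, 39.8 CPM in WT). Prdm1, Nanos3 and Dppa3 had lower means in KO, and Tfap2c a higher one (12.7 CPM in KO, 11.7 CPM in WT). The part of these lower sums in the results on the factors was not tested.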

How the data were processed

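RNA was measured in 6 libraries. Per the labels' protocols, 500 ng of total RNA was depleted of ribosomal RNA, made into directional libraries and read in pairs of 36 bases. The authors deposited whole-number read counts per gene (not normalized), and the signed fold (a score) and FDR-corrected p-values of their own test, per the file headers. The submitters' processing notes name mm10 and edgeR; for the aligner, counter and strand setting, nothing is given in the sources used here, so genes sharing sequence or overlapping carry an unknown error. The headers of the counts hold a genotype and a number from 01 to 06, not a replicate; libraries are named by these. A further 18 columns of values per library were not used.

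Genes passing filterByExpr were scaled by TMM (factors 0.987 to 1.02) and tested with edgeR 4.0.16 (robust quasi-likelihood, group as the only term, limma 3.58.1, R 4.3.3), Benjamini-Hochberg adjusted over 11594 genes; a call is an adjusted p under 0.05, and the SE is the log2 fold change over the root of F. CPM uses TMM-scaled library sizes. Depth was 4234788 to 5206717 counts, which limits genes such as Tbx3 and Nr5a2 with under 50 counts a library. On simulated counts for this comparison (11398 genes), changes of 0.5, 1 and 2 on the log2 scale were recovered in 59.4%, 91.7% and 100% of changed genes, and 4.12% of the calls were false. All genes were simulated with the common biological coefficient of variation of these libraries, 5.03%. Recovery of genes with a larger spread was therefore not tested. Gene IDs, strands and exon lengths come from GENCODE M21; 95.1% of rows matched by symbol and chromosome. Alternatives were other scalings, filters, DESeq2 1.42.0, limma voom, and leaving out each library. A comparison of Klf protein sequences was not made. Members and lists were chosen with earlier results of these data known. The text names all 10 factors, up to 4 called genes per list and direction by smallest adjusted p, and the 5 genes nearest to Nanog in pattern; the genes flanking a factor were added later. The values of 1 gene of a context list are not reported here.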

Additional observations from a re-analysis of the deposited data

How the results depend on the processing

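Across RLE, upper-quartile or no scaling factors, TMM without chromosomes 6 and 8, the largest row left out, no filter, a CPM filter, DESeq2, non-robust edgeR and limma voom, each factor kept its direction, and Zfp42 with DESeq2 (-0.39, adjusted p = 0.099) was the only call of a factor to change. DESeq2 called 569 genes higher and 693 lower, against 943 and 1059. When 1 library was left out, 6 to 8 factors fell and 0 to 1 rose; over all genes 820 to 923 fell and 719 to 823 rose. Nanog (-1.74 to -1.56), Nr0b1 (-1.66 to -1.52), Esrrb (-0.91 to -0.71), Tfcp2l1 (-0.93 to -0.72), Klf4 (-1.28 to -0.79) and Klf5 (-0.51 to -0.40) passed in all 6 such fits; Nr5a2 (-1.15 to -0.87) and Klf2 (0.49 to 0.67) passed in 5 and Zfp42 (-0.51 to -0.31) in 2. Tbx3 ran from -0.59 to 0.06, turning positive (0.0553) without WT library 01; the cause was not tested. No paired analysis was possible because the count columns carry no replicate number.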
